A study of Homo sapiens with 49 samples.

Results

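RNA polymerase II (RNAPII) was mapped by chromatin immunoprecipitation and sequencing (ChIP-seq) in T-47D cells after estradiol or vehicle, and the position of the polymerase was compared gene by gene. T-47D is a breast ductal carcinoma line that carries estrogen receptor α. Of 49 samples in the series, 45 had a list of enriched regions (peaks) and 4 of these were the T-47D RNAPII libraries described here, replicates 1 and 2 under each treatment. Cells had been kept in hormone-depleted medium and were then treated for 1 h with 10 nM 17β-estradiol (E2) or with its solvent, dimethyl sulfoxide (DMSO). The antibody was raised against the heptad repeat of the RNAPII C-terminal domain. Both treatments share the cell line and the depleted medium. The labels do not say whether the replicates came from separate cultures, so p-values measure only the spread between these libraries.

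For 19748 protein-coding genes on the 22 autosomes and X (GENCODE release 44 on GRCh37, the same assembly as hg19), 2 quantities were read from each list. The covered length is the number of base pairs (bp) of the gene body that lie under a peak, where the gene body is the gene span outside 250 bp either side of the starts of its own coding transcripts. The start-site peak is a peak within 250 bp of any of these starts, and its height is the fold enrichment, the ratio of ChIP signal to background at the summit. Both windows share no base, but 1 peak can extend over both. A gene was called higher after E2 when both E2 libraries covered more of its body than either DMSO library and the gap between the nearest libraries of the 2 treatments was at least 500 bp, and lower when the reverse held.

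RNAPII transcribes all protein-coding genes. It is loaded at the promoter, often pauses shortly downstream of the start site, and must be released into the gene body to make a full transcript. Peaks at start sites therefore mark loaded or paused polymerase, and long covered stretches of the body mark genes with much elongating polymerase. The estrogen receptor is a nuclear receptor that, once bound by estradiol, sits on estrogen response elements, a palindromic DNA motif, and acts on nearby and distant genes.

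The lists differed in size within each treatment. DMSO replicates 1 and 2 held 39371 and 21291 peaks, and E2 replicates 1 and 2 held 46282 and 23433 peaks. The lists state no read depth. In 3000 sampled peaks of each list, the deposited fold enrichment and p-value gave whole-number pileups in all 3000 for DMSO replicate 2 and for E2 replicate 2, and the lowest background pileup was 1.59 and 1.49 sequenced fragments over a base, so these libraries had nearly equal backgrounds. In the replicate 1 libraries 5.53% (DMSO) and 5.27% (E2) of peaks did so, and no background was computed. The line was checked against marker genes. All 12 luminal breast markers, among them ESR1, PGR, GATA3 and KRT8, had a start-site peak in all 4 libraries. None of 4 basal breast markers, 4 blood cell markers or 6 endometrial markers had one in all 4, and the only library with any was DMSO replicate 1, at WT1. Of 6 mesenchymal markers, only COL1A1 had one in all 4.

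The first comparison asked whether E2 altered how much of the genome RNAPII covered. It gave no difference beyond the spread between replicates. Gene bodies were covered over 16 and 4.73 Mb in the DMSO libraries and 12.7 and 5.35 Mb in the E2 libraries (sums over genes). The groups overlapped, with a ratio of E2 to DMSO of 0.948 (exact two-sided permutation test, p = 1.0, where 0.333 is the smallest p that 2 against 2 libraries allow). The ratio between replicates was 3.37 under DMSO and 2.38 under E2, and the E2 to DMSO ratio was 1.74 without DMSO replicate 1, 0.516 without DMSO replicate 2, 0.615 without E2 replicate 1 and 1.46 without E2 replicate 2. Start-site peaks were found at 12515 and 9017 genes under DMSO (63.4% and 45.7%) and at 11617 and 10061 genes under E2 (58.8% and 50.9%), a ratio of 1.02 (exact two-sided permutation test, p = 1.0). A total of 8847 genes (44.8%) had a start-site peak in all 4 libraries and 7140 (36.2%) in none.

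At the level of single genes, E2 was accompanied by a greater RNAPII-covered length in the bodies of a small set of genes. Of these, 12 belong to a list of estrogen-induced genes given below. The covered length sums separate peaks and need not be a single unbroken stretch. By the agreement of both replicates, 81 genes were higher after E2 (0.410% of the 19748) and 25 were lower (0.127%). The 81 genes lay in 68 separate loci, and 32 of them overlapped another protein-coding gene, where RNAPII signal cannot be assigned to either. The libraries are from bulk cells, so a gene occupied in more cells and a gene more densely occupied per cell cannot be told apart. Together the bodies of the 81 were covered over 219.0 and 111.0 kb in the DMSO libraries and 988.0 and 597.0 kb in the E2 libraries. The gaps of the higher genes reached 48111 bp (median 1681 bp), those of the lower genes 2400 bp (median 848 bp). A gap of at least 2000 bp was passed by 34 genes in the higher direction (0.172%) and 2 in the lower (0.0101%).

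The balance of the directions depended on the size of the difference and on single libraries. With a gap of at least 1 bp, 269 genes were higher (1.36%) and 800 lower (4.05%), so that lower genes were then the more numerous. Lists shortened to equal length gave 86 higher and 58 lower genes. Without DMSO replicate 1 there were 579 higher and 149 lower genes, without DMSO replicate 2 121 and 2665, without E2 replicate 1 110 and 280, and without E2 replicate 2 551 and 60. Of the 81 genes, 61 also had at least a 1.5-fold ratio between the nearest libraries, against 13 of the 25.

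**Figure D1:**
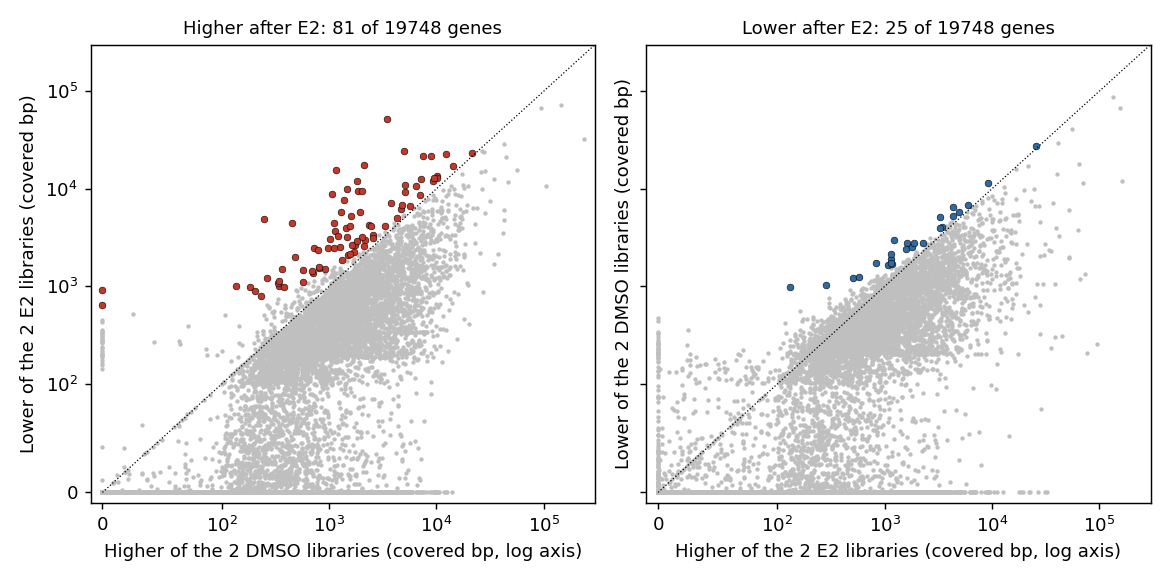
Covered bp of each protein-coding gene body on log axes that are linear below 100 bp. On the left, the lower E2 library is plotted against the higher DMSO library, with the 81 higher genes in red. On the right, the lower DMSO library is plotted against the higher E2 library, with the 25 lower genes in blue. The dotted line marks equal values. The red point of the largest gap is GREB1 at 51562 against 3451 bp, and the largest gap of a blue point is 2400 bp.

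A test over all genes passed none of them. The covered lengths were scaled to equal totals and fitted with limma on log2(covered bp + 200) over the 7199 genes with a mean of at least 200 bp. No gene passed an adjusted p of 0.05 in either direction (0.00%), and the lowest adjusted p was 0.255 (limma, Benjamini-Hochberg). At an unadjusted p under 0.05 there were 113 higher genes (1.57%) and 8 lower genes (0.111%). Without the filter on low coverage 9 genes passed as higher, without DMSO replicate 1 175 passed as higher and 21 as lower, and without E2 replicate 1 1 passed as higher. The values below are therefore given library by library, as descriptions of these 4 libraries.

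GREB1, an estrogen-induced cofactor of the estrogen receptor, had the largest gap. Its body (chr2:11622467-11782914) was covered over 3451 and 210 bp in the DMSO libraries and 76721 and 51562 bp in the E2 libraries, that is over 2.2% and 0.134% of the body against 48.8% and 32.8%. The fitted log2 difference was 5.95 ± 0.83 (SE; limma adjusted p = 0.255). Both E2 libraries covered largely the same bases: those covered in both summed to 44834 bp, or 87.0% of the smaller E2 coverage.

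RUNX1, a transcription factor of the core-binding complex, was covered over 4963 and 1990 bp under DMSO and 52359 and 24279 bp under E2 (chr21:36160098-37376965, overlapping FKSG68). KDM4B, a demethylase of histone H3 lysine 9, was covered over 12202 and 258 bp under DMSO and 95164 and 22467 bp under E2 (chr19:4969124-5153609). YEATS2, an acetyl-lysine reader of a histone acetyltransferase complex, was covered over 2029 and 472 bp under DMSO and 11071 and 9443 bp under E2 (chr3:183415585-183530412). The RUNX1 body is very long, so its covered share was 0.409% and 0.164% under DMSO and 4.31% and 2.0% under E2, and with a gap of 5 percentage points of the body, against its 1.59, it was no longer called. FHL2, a LIM-domain transcription cofactor, was covered over 1466 and 0 bp under DMSO and 22477 and 9882 bp under E2 (chr2:105974169-106054970).

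Enzymes and membrane proteins formed the next group. B4GALT1, a galactosyltransferase of the Golgi, was covered over 2118 and 236 bp under DMSO and 35743 and 17340 bp under E2 (chr9:33104080-33167354), a fitted log2 difference of 4.87 ± 0.71 (SE; limma adjusted p = 0.255). CA12, a carbonic anhydrase of the cell surface, was covered over 1867 and 1057 bp under DMSO and 30092 and 9417 bp under E2 (chr15:63613577-63674045). MYOF, the membrane repair protein myoferlin, was covered over 7436 and 7219 bp under DMSO and 36864 and 21890 bp under E2 (chr10:95066186-95242091). In MYOF the DMSO replicates were close to each other and the E2 replicates further apart, with a gap of 14454 bp between the treatments. SFXN2, a mitochondrial carrier, was covered over 1069 and 958 bp under DMSO and 14023 and 8908 bp under E2 (chr10:104474295-104503249). GPR132, a G protein-coupled receptor, was covered over 7193 and 489 bp under DMSO and 13438 and 12456 bp under E2 (chr14:105515732-105531782).

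HSPB8, a small heat shock protein, was covered over 1151 and 1095 bp under DMSO and 16823 and 15456 bp under E2 (chr12:119609360-119662660), with the replicates of each treatment close together. Among secreted proteins, THBS1 (thrombospondin 1) was covered over 1378 and 283 bp under DMSO and 8961 and 7744 bp under E2 (chr15:39873280-39891667, overlapping FSIP1). STC2 (stanniocalcin 2) was covered over 5081 and 2307 bp under DMSO and 10844 and 10989 bp under E2 (chr5:172741726-172755450). STC2 had most of its body covered under E2, at 86.2% and 87.4% in the E2 libraries. IFITM10, of the interferon-induced transmembrane family, was covered over 1805 and 656 bp under DMSO and 15820 and 11917 bp under E2 (chr11:1753636-1771825), and overlaps ENSG00000250644, a gene that also overlaps CTSD and had 8845 and 1050 bp against 26365 and 21798 bp.

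**Figure D2:**
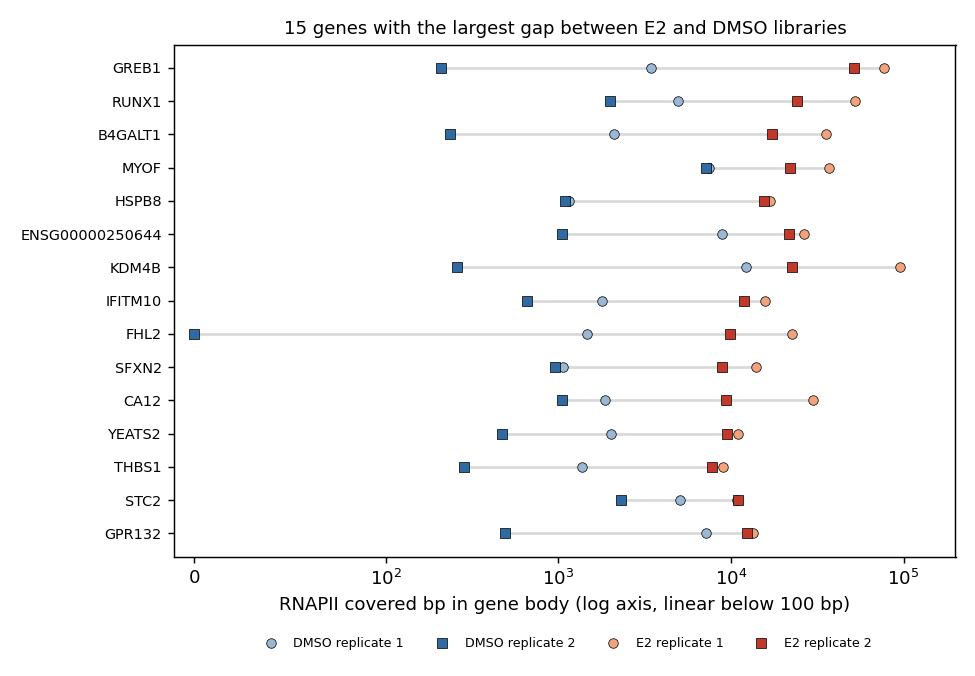
RNAPII covered bp in the gene body (log axis, linear below 100 bp) for the 15 genes with the largest gap, with circles for replicate 1, squares for replicate 2, blue for DMSO and red for E2. The grey line joins the lowest and highest library of a gene. In every row both red points lie to the right of both blue points, with the widest separation at GREB1.

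The other 66 higher genes had gaps of 506 to 4671 bp. They included the iron importer TFRC, the glycolytic regulator PFKFB3, the ceramide glucosyltransferase UGCG, the scaffold protein NHERF1, the corticosteroid-binding globulin SERPINA6, the cytokine receptor kinase JAK1 with its overlapping neighbour RAVER2, and the EGFR feedback inhibitor ERRFI1. Channels and transporters among them were KCNH1, KCNQ5, ITPR1, SLC1A2 and SLC38A1. Beside PGR, RARA and MYC, described below, transcriptional regulators included AFF3, GATA4, GRHL2, IRF2BP2 and the zinc finger genes ZNF552, ZNF586 and ZNF814. CCDC170, PTGER3, CADM1, CAP2, THSD4, OSGIN1, NECAB2, ASB13, ITPK1, MREG, NEK10, NTM, PHACTR1, PHLDA1, ARL3, ATXN7L1 and BMPER were also higher. A call rests on peaks in the body and does not require a start-site peak. GATA4 and BMPER had no start-site peak in any library, and AFF3 and SLC1A2 had one in DMSO replicate 1 alone. The GATA4 body was covered over 3.3% and 0.788% in the E2 libraries. JAK1, among the 10 smallest p-values of the coverage fit, was covered over 1597 and 0 bp under DMSO and 31406 and 5230 bp under E2. EPS8L3, also among them and overlapping GSTM5, had 0 covered bp in both DMSO libraries and 9177 and 927 bp under E2. The genes just inside the threshold were SLC38A1 (gap 506 bp), POC1B (543 bp) and SGK3 (557 bp), and those just outside it were NEDD9 (496 bp), PARL (481 bp) and ZBTB40 (480 bp).

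Several higher genes were neighbours on the chromosome, a feature noticed after the values were seen. PXK, PDHB and ACOX2, which encode a phox-domain kinase-like protein, a pyruvate dehydrogenase subunit and a peroxisomal oxidase, lie within chr3:58318607-58523010. PDHB was covered over 747 and 1122 bp under DMSO and 2486 and 2830 bp under E2, and ACOX2, which had no start-site peak in any library, over 719 and 515 bp and 4548 and 2446 bp. ARL3 and SFXN2 adjoin on chromosome 10, OSGIN1 and NECAB2 on chromosome 16, and STK17A and COA1 overlap on chromosome 7. RARA and IGFBP4, both long known as estrogen targets, lie within chr17:38465432-38613977.

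Fewer and smaller differences went the other way. TFAP2A, an AP-2 transcription factor of epithelia, had the largest gap, 2400 bp. Its body (chr6:10393419-10419892) was covered over 11556 and 14869 bp under DMSO and 8775 and 9156 bp under E2. GATA3, the luminal lineage factor, was covered over 27210 and 27676 bp under DMSO and 23659 and 25958 bp under E2 (chr10:8087341-8117161). The treatments did not overlap in either gene, but GATA3 still had 84.7% and 92.9% of its body covered after E2. ARID5B, another DNA-binding protein, was covered over 2760 and 4807 bp under DMSO and 1632 and 1465 bp under E2.

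MCC, SRP19 and REEP5 lie close together (chr5:112196885-112824520) and were all lower, again a feature noticed afterwards. MCC was covered over 6479 and 9417 bp under DMSO and 4337 and 1153 bp under E2 (it overlaps DCP2 and TSSK1B). SRP19, a subunit of the signal recognition particle, was covered over 2986 and 6084 bp under DMSO and 1222 and 818 bp under E2, and overlaps REEP5, a shaping protein of the endoplasmic reticulum. RCC1, the exchange factor of the Ran GTPase, was covered over 5341 and 5127 bp under DMSO and 3277 and 2582 bp under E2.

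DIP2B, PHF20, FGF12 and RAD51B completed the 10 largest gaps, at 1004, 920, 909 and 881 bp. The remaining 15 lower genes had gaps of 533 to 877 bp. They included the corepressor TLE1, the bromodomain protein BRD2, the TGF-β pseudoreceptor BAMBI, the stress factor NUPR1, the ubiquitin-conjugating enzyme UBE2N and the histone gene H2AC6. PHACTR3 (469 bp) fell short of the threshold, while TLE1 (533 bp) and REEP5 (536 bp) just passed it. When the covered lengths were scaled to equal totals, 2 of the 25 lower genes and 63 of the 81 higher genes were called again in the same direction.

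Start-site peaks of the called genes were examined next. Of the 81 higher genes, 58 had a start-site peak in all 4 libraries, 10 in 3, 2 in 2, 3 in 1 and 8 in none. Most therefore had RNAPII at the promoter under DMSO already. Over the 58, the median log2 difference in start-site peak height was 0.25 and 44 were above 0. Over all 8847 genes fitted the median was 0.0 and 4381 were above 0. The 58 were selected by body coverage in these same libraries, and 1 peak can extend over start site and body, so these heights are a description. GREB1 had start-site heights of 23.8 and 7.9 under DMSO and 33.8 and 19.2 under E2 (log2 difference 1.25 ± 0.34 SE, limma adjusted p = 0.999), and these overlapped between treatments. At SIAH2 the heights were 77.5 and 17.2 under DMSO and 22 and 29.4 under E2, although the body gap was 3324 bp.

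Over all 8847 genes, limma on log2 height centred on each library's median passed no gene (0.00% in each direction), with 42 higher (0.475%) and 49 lower (0.554%) at an unadjusted p under 0.05. Without DMSO replicate 1 4 genes passed as lower, and without DMSO replicate 2 29 passed as higher and 3 as lower. Without the centring the median of all genes was −0.36. The smallest unadjusted p belonged to IRX5, a homeobox gene, whose start-site height was 88.2 and 24.7 under DMSO and 15 and 8.61 under E2 (log2 difference −1.68 ± 0.31 SE, limma adjusted p = 0.999). The treatments did not overlap there, and IRX5 passed without DMSO replicate 1 (limma adjusted p = 0.0403) and with the replicate number as a block (limma adjusted p = 0.0152). Among the higher genes, LONP2, a peroxisomal protease that overlaps ABCC11 and SIAH1, had the smallest p, with heights of 37 and 6.77 under DMSO and 37.7 and 20.9 under E2. IFITM10 followed at 21.5 and 7.31 under DMSO and 35.0 and 16.9 under E2, and SERPINA1, a protease inhibitor, at 27.3 and 6.69 against 35.8 and 16.8. In all of these 3 genes the ranges overlapped between treatments, and replicate 1 stood above replicate 2 under either treatment. TEDC1, ST3GAL1 and LMBR1 on the lower side, and GREB1, SINHCAF and NAF1 on the higher, completed the 10 smallest p-values.

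A start-site peak in both E2 libraries and in neither DMSO library was found at 4 genes (0.0203%), and the reverse at another 4 (0.0203%). CCR6, the receptor of the chemokine CCL20, had the tallest gained peak, with a fold enrichment of 28.4 and 16.9 in the E2 libraries (chr6:167525295-167552629). MPPED2, a metallophosphoesterase, had 10.2 and 9.24, RP1, a microtubule-associated protein, 9.34 and 7.82, and PLAC1, a placental gene, 5.21 and 6.57. Peaks were lost at CAMK2N1, an inhibitor of a calmodulin-dependent kinase (12.4 and 10.2 under DMSO), at AC127496.1 (19.4 and 6.29) and at ENSG00000281039 (15.8 and 14.3) and RNASEK-C17orf49 (8.28 and 7.95), the last 3 of which overlap other genes. None of the 8 genes was called by its body. The counts rested on single libraries: 1178 gained and 7 lost without DMSO replicate 1, 15 and 963 without DMSO replicate 2, 5 and 136 without E2 replicate 1, and 64 and 10 without E2 replicate 2.

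Averaged over the higher genes, RNAPII peaks covered more under E2 in every part of the transcript. Single genes differed widely, from STC2 with 86.2% and 87.4% of its body covered in the E2 libraries to KCNQ5 with 0.353% and 0.259%. The means therefore do not describe each gene. Genes with a canonical transcript of at least 5000 bp were used, which kept all 81 higher genes and 21 of the 25 lower genes. Along the canonical transcript, divided into 10 equal parts, the mean covered share in part 1 was 28.5% and 15.3% under DMSO and 40.4% and 35.0% under E2. In part 5 it was 5.87% and 1.5% under DMSO and 25.1% and 16.8% under E2, and in part 10 11.7% and 9.12% against 35.0% and 28.1%. These shares are partly what the call selected. The 2 kb just past the transcript end were covered over 11.5% and 8.37% under DMSO and 29.6% and 25.7% under E2. Bins past the end can lie in the body of the same gene or of a neighbouring higher gene, as with OSGIN1 and NECAB2. There they repeat coverage that the calls selected, and the part of such bins in the shares was not tested. At 8 to 10 kb past the end the shares were 3.77% and 2.21% against 17.2% and 11.1%. Both E2 libraries lay above both DMSO libraries in all 15 parts and bins. In the 21 lower genes both DMSO libraries lay above both E2 libraries in 12 of the 15 and the treatments overlapped in 3.

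In the 7812 other genes of that length with a start-site peak in all 4 libraries, replicate 1 lay above replicate 2 under both treatments. Their part 1 was covered over 27.9% and 13.9% under DMSO and 21.6% and 15.7% under E2, and their part 5 over 3.33% and 0.855% against 2.46% and 0.885%. Higher genes were also longer, with a median body of 78.8 kb against 30.9 kb for genes with a start-site peak in all 4 libraries, and a gap counted in bp favours long genes. With the gap set at 5 percentage points of the body in place of 500 bp, 41 genes were higher, 34 of them among the 81, and 29 were lower, 8 of them among the 25.

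**Figure D3:**
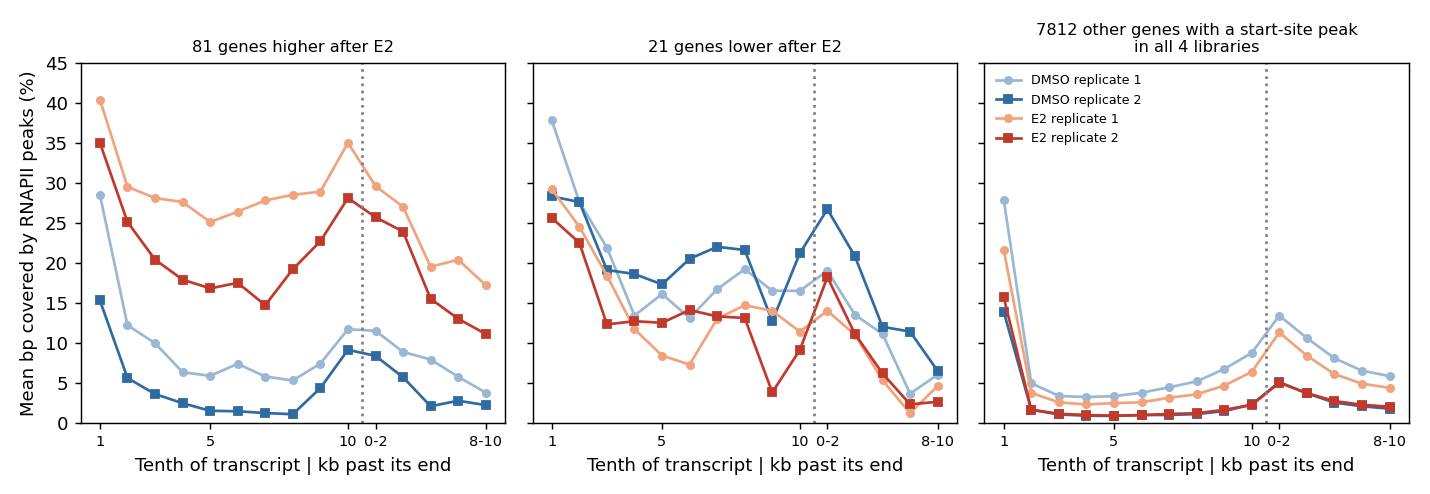
Mean share of bp covered by RNAPII peaks (vertical axis, percent) in 10 equal parts of the canonical transcript and in 2 kb bins up to 10 kb past its end (horizontal axis), for each library. In the 81 higher genes both E2 lines run above both DMSO lines from start to end and beyond, at 25.1% and 16.8% against 5.87% and 1.5% in part 5. In the 21 lower genes both DMSO lines lie above both E2 lines in 12 of 15 positions, and in the 7812 other genes replicate 1 lies above replicate 2 whatever the treatment.

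Genes listed as estrogen-induced stood out among the lists examined, which were drawn up from general knowledge with earlier results on GREB1 in these libraries known. Of 33 such genes, 12 were called higher (36.4%, against 0.410% of all genes) and none lower. The median log2 difference of coverage was 2.09 over the 26 of them in the fit, against −0.06 over all 7199 genes. Together their bodies were covered over 78.1 and 30.4 kb under DMSO and 295.0 and 215.0 kb under E2. Beside GREB1, FHL2, CA12 and STC2, the called members were PGR, RARA, MYC, IGFBP4, SIAH2, CTSD, FKBP4 and TPD52L1.

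Among receptors and transcription factors, PGR, the progesterone receptor, was covered over 3783 and 14347 bp under DMSO and 17235 and 62816 bp under E2 (chr11:100900355-101000544). Here replicate 2 was above replicate 1 under both treatments, so that the gap of 2888 bp was smaller than the spread within either treatment. RARA, the retinoic acid receptor α, was covered over 21396 and 4006 bp under DMSO and 39360 and 23077 bp under E2. The gaps of RARA (1681 bp) and of KDM4B above (10265 bp) were also smaller than the spread within either treatment. MYC, the proto-oncogene and immediate-early factor, was covered over 1262 and 0 bp under DMSO and 3237 and 2527 bp under E2.

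IGFBP4, a binding protein of insulin-like growth factors, was covered over 453 and 0 bp under DMSO and 9331 and 4486 bp under E2, a log2 difference of 4.66 ± 0.72 (SE; limma adjusted p = 0.269). SIAH2, a ubiquitin ligase, was covered over 1101 and 256 bp under DMSO and 7353 and 4425 bp under E2. CTSD, the lysosomal protease cathepsin D, was covered over 5058 and 0 bp under DMSO and 10338 and 9172 bp under E2, and it overlaps ENSG00000250644. These 3 genes had little or no covered body in DMSO replicate 2. FKBP4, a cochaperone of steroid receptors, was covered over 2354 and 568 bp under DMSO and 5664 and 4280 bp under E2, and TPD52L1, which overlaps HDDC2, over 0 and 203 bp against 2752 and 888 bp.

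Other listed targets were not called. TFF1, AREG, EGR3, TFF3, PDZK1 and KCNF1 had 0 covered bp in every library, and of these TFF1, AREG and EGR3 had no start-site peak either. CCND1, cyclin D1, was covered over 9079 and 95 bp under DMSO and 10991 and 5754 bp under E2, and IGF1R over 7804 and 2168 bp against 19072 and 4428 bp, so that both overlapped between treatments. XBP1 (1245 and 2922 bp against 3391 and 4966 bp), RAPGEFL1 (795 and 50 bp against 5287 and 984 bp) and MYB (931 and 0 bp against 1998 and 1152 bp) did not overlap but had gaps under 500 bp.

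**Figure D4:**
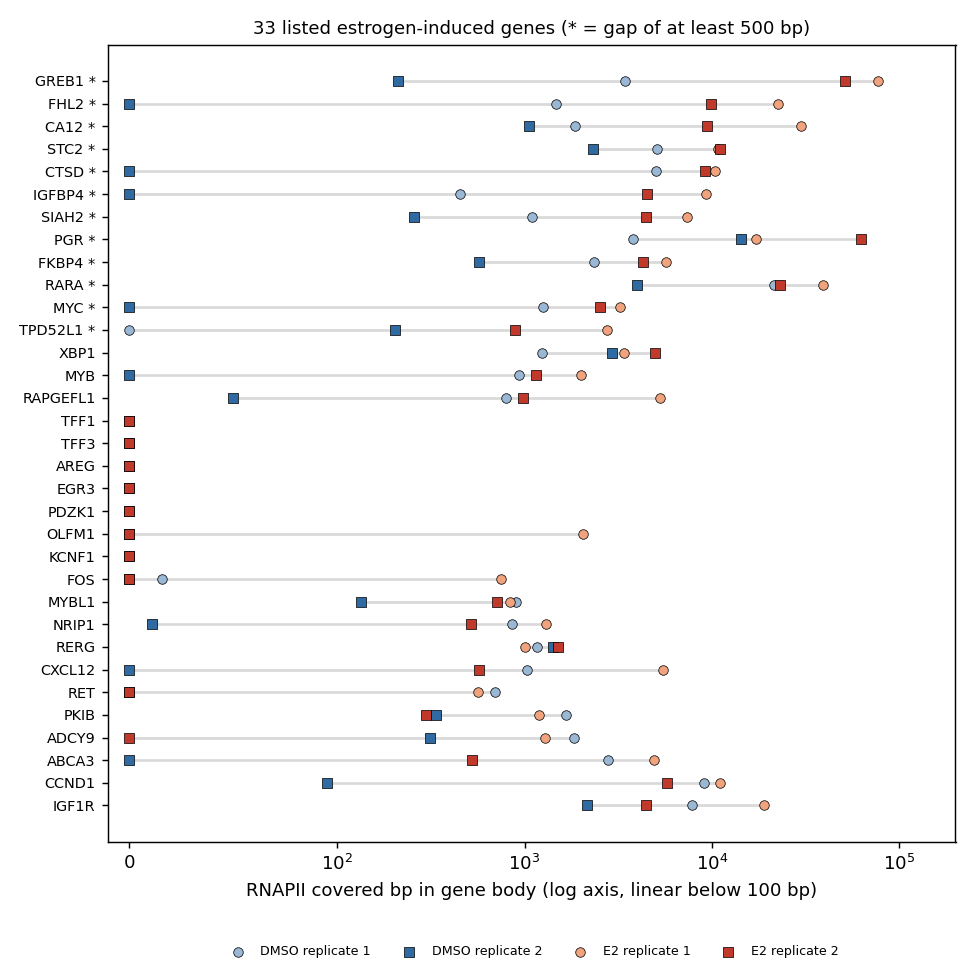
RNAPII covered bp in the gene body (log axis, linear below 100 bp) of the 33 listed estrogen-induced genes, ordered by the gap, with circles for replicate 1, squares for replicate 2, blue for DMSO and red for E2. The 12 genes with an asterisk had a gap of at least 500 bp. From FOS downward the colours mix, and 6 genes lie at 0 in all libraries.

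The other lists are small, and at shares of 0.410% and 0.127% over all genes a count of 0 in them is not a result about their genes. Of 24 immediate-early genes only MYC was higher (4.17%) and none was lower, although 19 had a start-site peak in all 4 libraries. FOS was covered over 16 and 0 bp under DMSO and 745 and 0 bp under E2. Of 16 estrogen receptor partners and coregulators, PGR was higher and GATA3 lower, while ESR1 itself was covered over 4953 and 2572 bp under DMSO and 7713 and 5415 bp under E2, a gap of 462 bp. None of 6 estrogen-repressed genes, 22 pausing and elongation factors, 16 cell cycle and replication genes or 15 housekeeping genes was called in either direction. Among 16 growth factor ligands and receptors only IGFBP4 was higher. All 15 housekeeping genes had a start-site peak in all 4 libraries, and their bodies were covered over 38.1 and 21.0 kb under DMSO and 36 and 20.4 kb under E2.

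RNAPII also lay on estrogen response elements themselves. The full palindrome GGTCANNNTGACC, which reads the same on both strands, occurs 2178 times on the 22 autosomes and X. It was wholly covered by an RNAPII peak in both E2 libraries and in neither DMSO library at 31 places (1.42%), and in both DMSO libraries and neither E2 library at 0 places (0.00%). In the single libraries, 59 and 20 elements were covered under DMSO (2.71% and 0.918%) and 154 and 70 under E2 (7.07% and 3.21%), while the peaks covered 0.988% and 0.373% of the sequenced genome under DMSO and 0.796% and 0.42% under E2. As a density per Mb, the 0.513 Mb covered in both E2 libraries alone held 60.4 elements, against 0.768 in the whole sequenced genome. The 0.27 Mb covered in both DMSO libraries alone held 0.0. At the density of the whole genome so short a length would mostly hold no element, so this 0.0 is not a result about DMSO.

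The motif of the glucocorticoid and progesterone receptors, GAACANNNTGTTC, has the same length and symmetry and occurs 3499 times. It was covered in both E2 libraries alone at 3 places (0.0857%) and in both DMSO libraries alone at 0. The counts of estrogen response elements in the E2 direction and in the DMSO direction were 45 and 0 without DMSO replicate 1, 32 and 11 without DMSO replicate 2, 36 and 0 without E2 replicate 1, and 108 and 3 without E2 replicate 2.

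**Figure D5:**
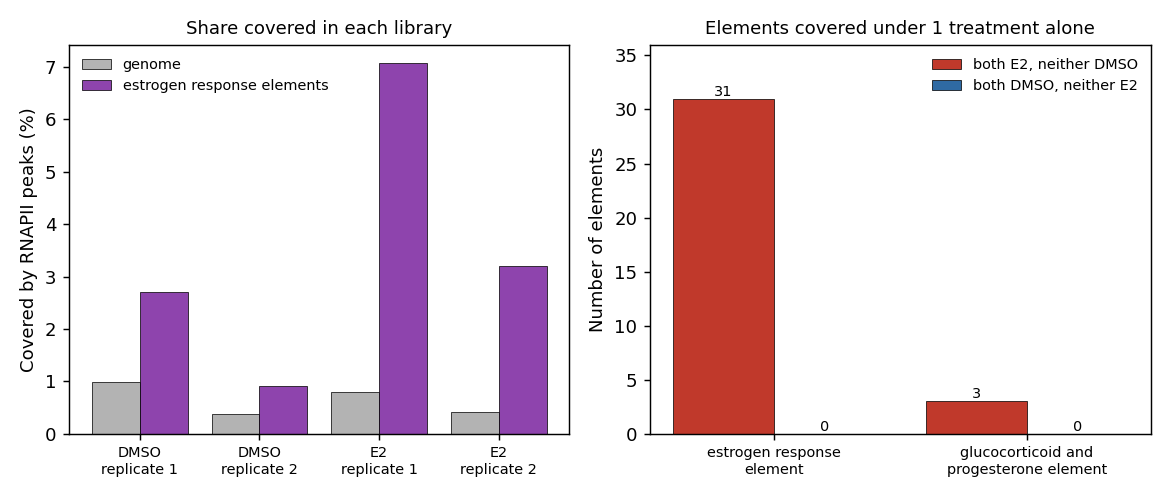
On the left, the percentage of the sequenced genome (grey) and of the 2178 estrogen response elements (purple) that RNAPII peaks covered in each library. On the right, the number of elements covered in both libraries of 1 treatment and neither of the other, for the estrogen response element and for the glucocorticoid and progesterone element. The purple bars are tallest in the E2 libraries (7.07% and 3.21%), and 31 elements stand against 0 on the right. The 0 was counted over only 0.27 Mb, which would mostly hold no element at the density of the whole genome.

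Of the 31 elements covered in both E2 libraries alone, 15 were in introns (48.4%, against 40.3% of all 2178), 4 in exons (12.9% against 6.43%) and 12 between genes (38.7% against 53.3%). None of the 31 and 13 of the 2178 (0.597%) lay within 250 bp of the nearest canonical start, and 24 of the 31 (77.4%) and 1884 of the 2178 (86.5%) lay over 10 kb from it. Elements near 7 of the genes described above are shown on the plus strand of GRCh37, with the element in capitals and 20 bases on either side, because they lie in or nearest to these genes, while a link to the gene was not tested:

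GREB1: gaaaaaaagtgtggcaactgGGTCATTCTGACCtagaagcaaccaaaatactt

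SIAH2: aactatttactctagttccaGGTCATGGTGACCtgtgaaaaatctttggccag

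FSIP1: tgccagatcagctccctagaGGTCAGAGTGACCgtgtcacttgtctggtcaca

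THSD4: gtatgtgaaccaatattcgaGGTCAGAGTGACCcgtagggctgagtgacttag

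CCR6: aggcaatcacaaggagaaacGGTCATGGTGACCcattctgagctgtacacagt

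FHL2: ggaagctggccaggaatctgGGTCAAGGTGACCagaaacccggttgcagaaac

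B4GALT1: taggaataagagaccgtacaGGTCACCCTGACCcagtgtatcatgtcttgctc

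The GREB1 element (chr2:11672660-11672672) lies in an intron, 1511 bp upstream of the canonical start, under peaks with a fold enrichment of 14.8 and 15.1 in the E2 libraries. The SIAH2 element (chr3:150474431-150474443) is intronic, 6513 bp downstream of the start, with 14.7 and 16.3. The element in an intron of FSIP1 (chr15:39960847-39960859), a gene that overlaps THBS1 and was called higher with it, had 15.5 and 13, and the THSD4 element (chr15:71397215-71397227, intronic, 10595 bp upstream of the canonical start) had 20.8 and 18.1. The CCR6 element (chr6:167534015-167534027) lies in an intron 2569 bp upstream of the canonical start, and its fold enrichments of 28.4 and 16.9 equal those of the gained start-site peak.

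Between genes, the element nearest to the start of FHL2 (chr2:106139328-106139340) lies 123832 bp upstream of it and had the highest lower value of the 31, with 21.0 and 20.3. The element nearest to B4GALT1 (chr9:33199992-33200004) lies 32670 bp upstream, with 15.4 and 12.0. Of the 31, 7 lay in a higher gene or nearest to the start of one (22.6%, against 23 of all 2178, or 1.06%), and none was nearest to the start of a lower gene. These 7 are not the 7 shown: they leave out that of CCR6, which was not called by its body, and take in an element in an intron of POC1B. Elements and higher genes were both selected by coverage in the same 4 libraries, and 2003 of the 2178 elements were covered in no library. A peak on an element inside a gene also adds to the body coverage that the call used. The shares of 22.6% and 1.06% are therefore a description. Within the bodies, an element was present in 9 of the 81 higher genes (11.1%), 3 of the 25 lower genes (12.0%) and 944 of all 19748 (4.78%), and per Mb of body the density was 1.2, 0.766 and 0.784. Within 250 bp of the canonical start it was present in 1 higher gene (1.23%) and in 13 of all genes (0.0658%).

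Other T-47D lists, 1 library each and so with no replicate check, were set beside the calls. TAF1, a subunit of the general transcription factor TFIID, had a peak in the body of 15 of the 81 higher genes under DMSO (18.5%) and 33 under E2 (40.7%), in the body of 7 and 10 of the 25 lower genes, and in 12.9% and 25.1% of genes with an RNAPII start-site peak in all 4 libraries. The share was greater under E2 in all of these sets, as was the length of the list, at 4591 and 5645 peaks. LSD1, a histone demethylase, had peaks in the bodies of 0 higher genes under DMSO and 12 under E2 (14.8%, against 4.0% of lower genes and 0.938% of genes with a start-site peak), with 42 and 442 peaks in the whole lists. H3K4me1, a mark of enhancers, was taken after 8 h of treatment. Its list was much shorter under E2, with 6408 peaks under DMSO and 1960 under E2. It had a peak in the body of 37 higher genes under DMSO (45.7%) and 18 under E2 (22.2%). The lower genes had 9 and 7 of 25, genes with a start-site peak 11.1% and 4.79%, and all genes 8.61% and 3.43%. These shares move with body length, and the part of length in them was not tested. H3K4me3, a promoter mark also taken after 8 h, was present at the start site of 68 higher genes under DMSO (84.0%) and 66 under E2 (81.5%). The shares were 92.0% and 88.0% of lower genes and 61.1% and 57.7% of all genes. Among genes with an RNAPII start-site peak in all 4 libraries they were 97.6% and 94.9%, above those of the higher genes.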

How the data were processed

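Each list was made from 1 library. The authors placed reads on hg19 with Bowtie 1.1.2, only where a single placement existed, and called peaks with MACS2 2.1.0.20140616. A fold enrichment (a ratio of signal to background), the p-value and q-value as −log10, and a score were deposited for every peak. The methods state a q-value cutoff of 0.05, but the smallest deposited −log10 p-value was 10.0, so a place without a peak here has none past that stricter level. Input libraries were not analysed here.

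Covered bp and start-site peaks were computed with Python 3.11.15, numpy 2.4.6 and pandas 2.3.3, and fits with limma 3.58.1 (trend, robust) in R 4.3.3. The fit code was run on simulated data with independent noise in each library. Replicate differences correlated between treatments in the real libraries, so that run checks the code and not the fit to these data. Background pileups were solved from fold enrichment and p-value with a tolerance of 0.02 on −log10 p. One gene per symbol was kept. Elements count as covered when the whole motif is. Genes named with values are the 15 largest gaps higher, the 10 largest lower, those that gained or lost a start-site peak, those of smallest p in each fit, and called list members. Members and lists were chosen with earlier results of these data known, and the element counts after the files were seen. Alternatives were other gaps, windows, scalings, filters and libraries. Peak lists give no counts, so precision is limited by 2 libraries per treatment. Some genes that these rules name are not reported here.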

Additional observations from a re-analysis of the deposited data

How the results depend on the processing

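The calls by agreement of replicates moved with the rule. Higher and lower genes, 81 and 25 as reported, numbered 269 and 800 with a gap of 1 bp, 34 and 2 with 2000 bp, 41 and 29 with 5 percentage points of the body, 82 and 27 over the whole gene span, 49 and 18 among genes that overlap no other, 86 and 58 with lists of equal length, 201 and 55 with covered bp scaled to equal totals, and 60 and 15 with peaks of at least 10-fold enrichment. Adding a ratio of at least 1.5, chosen after seeing the data, gave 61 and 13. Leaving out 1 library at a time gave 110 to 579 higher and 60 to 2665 lower genes. Of the 81, 67 were called again with lists of equal length and 53 with the stricter peaks, and of the 25, 14 and 8. Gained start-site peaks numbered 7 with lists of equal length and lost ones 27, while the 5-prime end of the gene alone gave 7 lost and the stricter peaks 8 lost. Leaving out 1 library gave 5 to 1178 gained and 7 to 963 lost.

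The limma fits passed 0 genes under the other pseudocounts, lists of equal length and no scaling, and 9 higher genes without the filter on low coverage. Leaving out 1 library gave 0 to 175 higher and 0 to 21 lower genes for coverage, and 0 to 29 higher and 0 to 4 lower for height, where the lone library of a treatment is assumed to vary like the others. The ratio of genes with a start-site peak was 0.991 with lists of equal length and ran from 0.864 to 1.2 without 1 library, and that of total covered bp from 0.516 to 1.74. Estrogen response elements, an analysis and alternatives chosen after seeing the data, numbered 21 with the stricter peaks and 32 to 108 without 1 library in the E2 direction, and 0 and 0 to 11 in the DMSO direction.

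Equal replicate numbers are not said to mark a shared culture or day. Across genes, the difference between replicates 1 and 2 under DMSO correlated with that under E2. The correlation was 0.64 for coverage (7199 genes) and 0.27 for height (8847 genes), from only 2 pairs of libraries. With the replicate block, 247 genes were higher and 162 lower by at least 500 bp within each number, start-site counts stayed at 4 and 4, the coverage fit passed 0 genes (244 higher and 105 lower at an unadjusted p under 0.05), and the height fit passed 1 lower gene, IRX5 (limma adjusted p = 0.0152). Both ratios kept their values of 0.948 and 1.02. The cause of these differences was not tested. The lists state no depth, and its part in the counts was not tested.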
